A study of Mus musculus with 24 samples.

Results

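The comparison of duloxetine alone with control rested on 12 of the 24 mice of the study, 6 per group, with all 15456 genes of the deposited table. The mice were BALB/C, aged 11 weeks, and RNA was taken from the prefrontal cortex, 1 library per mouse. Duloxetine mice received the drug chronically, by daily intraperitoneal injection that began weeks before the behavioral tests. Control mice are labelled as having no treatment, and according to the methods they were injected and gavaged with PBS. Whether the duloxetine mice were also gavaged with PBS is not spelled out in the sources used here. The other 12 mice carried the gut bacterium *R. flavefaciens* by gavage, 6 without and 6 with duloxetine, and are used here as a second, separate set of mice with and without the drug. The mice were male and housed in groups, and the cage of each is not given in the sources used here. The first number of each mouse name was 1, 2 or 3 in control and 5 or 6 in duloxetine mice, so whatever this number stands for and the treatment cannot be told apart. The time from the last injection to dissection is not given in the sources used here.

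Duloxetine blocks the transporters that take serotonin and norepinephrine back into nerve terminals. In the prefrontal cortex the norepinephrine transporter also clears dopamine. Both norepinephrine and serotonin act mostly on G protein-coupled receptors, several of which raise or lower cAMP. Neurons that fire or receive cAMP and calcium signals transcribe immediate early genes within minutes, through factors such as CREB and SRF, and the clock gene *Per1* is also a target of CREB.

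Values are normalized counts, that is, reads per gene divided by a size factor of the mouse. Recovered reads ranged from 13435517 to 14446451 in control mice, with a median of 13591497, and from 13965066 to 14938209 in duloxetine mice, with a median of 14536037. Duloxetine libraries were deeper (exact permutation test, two-sided, p = 0.00433, 6 against 6 mice), and the part of depth in the results was not tested. The median Pearson correlation of a library with the others of its group, across genes on the log2 scale, lay between 0.990 and 0.992 in all 12 mice. It was 0.985 to 0.990 with *R. flavefaciens* alone and 0.988 to 0.990 with both treatments. Those libraries enter the same limma fit and its estimate of spread.

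The tissue label was checked against markers. Of 6 excitatory neuron markers 6 were measured, and their summed level lay between 82690 and 90770 normalized counts in control and between 82721 and 91465 in duloxetine mice, with *Camk2a* as the most abundant. Striatal markers summed to 2640 to 3281 and 2506 to 2717, with *Pde10a* first. The 4 tested choroid plexus markers summed to 60.5 to 91.5 and 52.0 to 182. In bulk tissue, fewer cells of a type and less RNA per cell cannot be told apart.

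No gene passed the test across the whole transcriptome. With limma, 0 of 14974 genes tested (0%) had an adjusted p under 0.05, and 573 (3.83%) had an unadjusted p under 0.05. This share is below the 0.05 that the threshold itself lets through when no gene differs. Of the 573 genes, 329 (2.2%) were higher and 244 (1.63%) lower in duloxetine mice. The split between directions moved with the scaling, to 246 higher and 295 lower after quantile normalization, to 417 and 159 after rescaling to the 75th percentile and to 244 and 375 once a trend on transcript length was removed. The median log2 fold change over all tested genes was -0.00, and the 95% confidence interval of a gene reached 0.18 to either side of its log2 fold change in the median. In 25 genes (0.167%) all 6 duloxetine mice lay above all 6 controls, and in 25 (0.167%) all lay below. DESeq2 on the recovered reads called 1 gene (0.00668%) with all 4 groups in the fit, *Adrb1*, and 28 of the 10039 genes it gave an adjusted p (0.279%) when fitted to the 12 mice alone, 13 higher and 15 lower. edgeR called 0 genes in either fit, with 588 genes at an unadjusted p under 0.05 with 4 groups and 1034 with 2.

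*Adrb1*, the beta-1 adrenergic receptor, which couples norepinephrine to the stimulatory G protein and to cAMP, had the smallest p of all genes. The gene is ENSMUSG00000035283.4, at chr19:56722372-56724862 of GRCm38 (plus strand). Control mice had a lowest value of 592, a median of 642 and a highest of 748 normalized counts. Duloxetine mice had 470, 497 and 533. All 6 treated mice were below all 6 controls (499 ± 22.9 against 656 ± 65.2, mean ± SD, n = 6 each). The log2 fold change was -0.39 (SE 0.08, 95% confidence interval -0.55 to -0.23), 23.7% lower. The exact permutation test gave 0.00216, the smallest p that the groupings of 12 mice allow. The adjusted p was 0.464 with limma and 0.0197 with DESeq2 in 4 groups. The study names this gene from the same mice, so its choice is not independent of them.

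The separate set of mice gave an independent value for *Adrb1*. Mice given *R. flavefaciens* alone had 650 ± 42.8 and those given both treatments 475 ± 74.5 normalized counts (SD, n = 6 each). There *Adrb1* fell by 0.46 on the log2 scale (SE 0.08, limma adjusted p = 0.007), and again no mouse of either group overlapped the other. In that set 334 genes (2.23%) passed the adjusted threshold. A difference between the drug effects with and without the bacterium was not detected for *Adrb1* (limma interaction, adjusted p = 0.873).

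**Figure D1:**
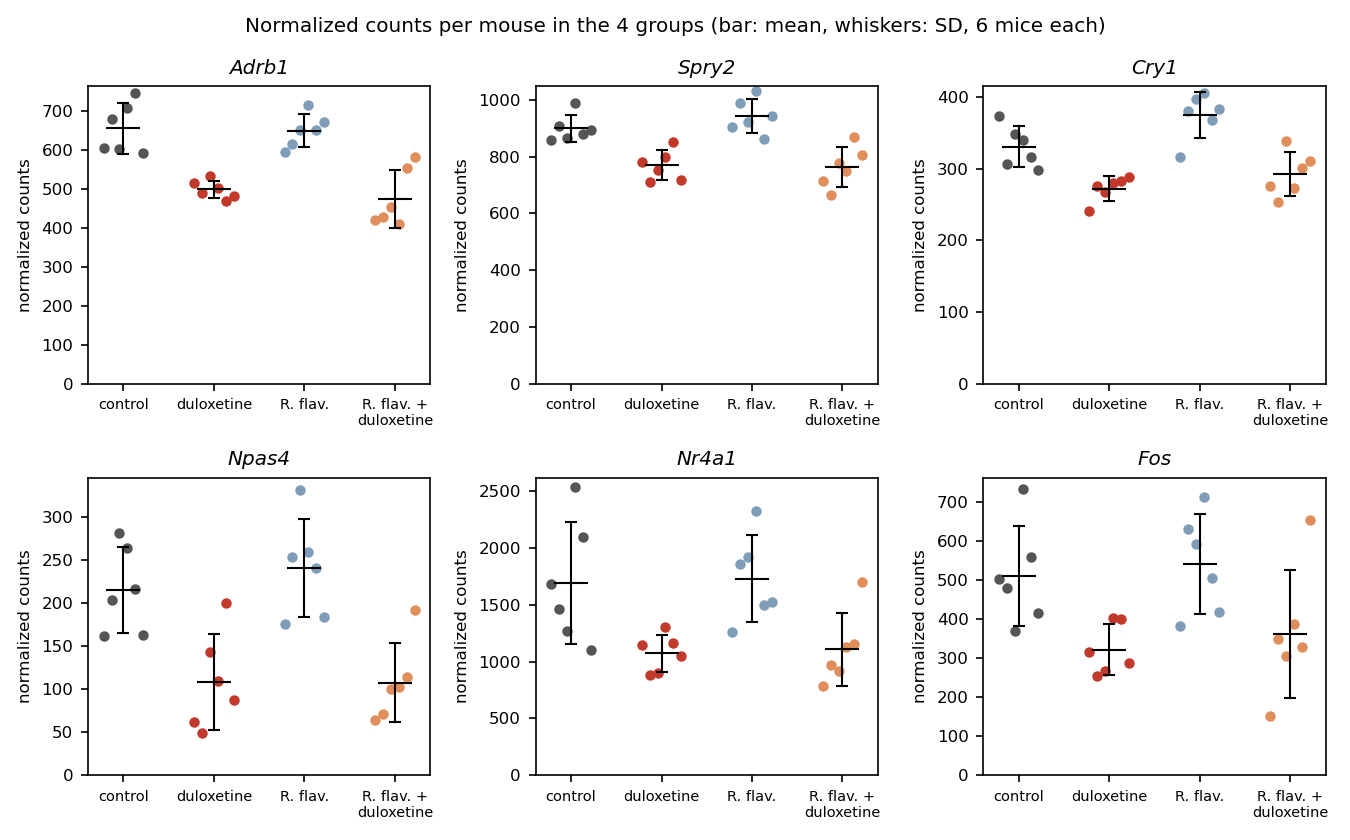
Normalized counts (y axis, from 0) of 6 genes in each mouse of the 4 groups (x axis), with the mean as a bar and the SD as whiskers. For *Adrb1*, *Spry2* and *Cry1* all 6 duloxetine mice lie below all 6 controls, whereas *Npas4*, *Nr4a1* and *Fos* overlap, and the 2 groups given the bacterium show the same order of means.

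Besides *Adrb1*, no adrenergic receptor had an unadjusted p under 0.05. The list had 8 tested members with *Adrb1*, 7 of them with a log2 fold change below 0, and a median of -0.09, which was -0.06 without control mouse 3_1 and -0.04 without duloxetine mouse 6_2. *Adra2c*, an inhibitory alpha-2 receptor, was at -0.09 (SE 0.10), and *Adra1d*, the most abundant of the list, at -0.11 (SE 0.16). Among mice given the bacterium *Adra2c* fell by 0.37 on the log2 scale (limma adjusted p = 0.0385), while the difference between both drug effects did not pass (adjusted p = 0.647).

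Of 11 serotonin receptors tested, 1 had an unadjusted p under 0.05, beside 3.83% of all genes. *Htr1a*, the inhibitory receptor that also acts as an autoreceptor, ran from 285 to 340 with a median of 324 in control mice, and from 237 to 320 with a median of 269 in duloxetine mice. The groups overlapped, with 4 of the 6 treated mice below every control. Its log2 fold change was -0.23 (SE 0.08, unadjusted p = 0.00768, adjusted p = 1.00 with limma). Its value in the second set was 0.08 (SE 0.08). The median of the list was 0.01.

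Of 3 dopamine receptors tested, *Drd5*, which raises cAMP, was the 1 with an unadjusted p under 0.05, beside the same 3.83%. It ran from 3.12 to 13.4 normalized counts in controls (median 6.29) and from 11.2 to 20.4 in duloxetine mice (median 16.2). The groups overlapped in a few mice, at counts this low, and the log2 fold change was 1.05 (SE 0.31), against -0.04 in the second set. The 8 tested genes of monoamine synthesis, transport and breakdown had no member under that threshold and a median of 0.11, which was 0.04 without control mouse 3_3 and 0.03 without duloxetine mouse 6_2. *Slc18a2*, the vesicular monoamine transporter, came nearest, at 0.22 (SE 0.11, unadjusted p = 0.0556). The plasma membrane transporters that duloxetine blocks, *Slc6a2* and *Slc6a4*, are made in brain stem neurons and had no row among the genes analysed here.

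Downstream of these receptors, the 38 genes for G proteins, adenylyl cyclases, phosphodiesterases, protein kinase A and receptor desensitization had 1 member lower and 0 higher at an unadjusted p under 0.05, beside 1.63% lower among all genes. This was *Adcy3*, an adenylyl cyclase, at -0.17 (SE 0.07). Of the 38, 33 had a log2 fold change below 0, but the median was only -0.03.

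Among immediate early and CREB target genes, a minority of members had an unadjusted p under 0.05, in 1 direction. Of 22 tested members, 8 had an unadjusted p under 0.05 and all 8 were lower, against 1.63% lower among all genes, and 21 of 22 had a log2 fold change below 0. The median was -0.25, beside -0.00 over all genes, and -0.16 without control mouse 2_3. No member passed the adjusted threshold with limma. The list was chosen with earlier results of these data known. Without any 1 of the 12 mice the count of members lower ran from 6 to 11.

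*Npas4*, a transcription factor made only on neuronal activity, was the second of all lower genes. Controls ranged from 161 to 281 normalized counts with a median of 210, and duloxetine mice from 49.0 to 200 with a median of 97.8. Of the 6 treated mice, 5 lay below every control, and mouse 6_2 lay within the control range. The log2 fold change was -1.11 (SE 0.27, 95% confidence interval -1.65 to -0.56), that is 53.5% lower, with an adjusted p of 0.881 by limma. *Nr4a1*, an orphan nuclear receptor of the early response, ranged from 1107 to 2535 in controls and from 879 to 1302 in treated mice. Its medians were 1576 and 1098 and its log2 fold change -0.61 (SE 0.18). *Fos*, a subunit of AP-1, had medians of 492 and 302 and a log2 fold change of -0.66 (SE 0.22). *Junb*, its partner, had medians of 1236 and 896 and a log2 fold change of -0.47 (SE 0.15). For *Nr4a1*, *Fos* and *Junb* the highest treated mice overlapped the lowest controls. The other 4 members under the threshold, named after their values were seen, were *Egr1* (-0.51), *Egr2* (-0.81), *Egr4* (-0.41) and the synaptic effector *Arc* (-0.62), and of these *Egr1* had no overlap between 6 and 6 mice. Control mouse 2_3 had 8870 normalized counts of *Arc*, and without it the log2 fold change of *Arc* was -0.38. The 1 member above 0 was *Nptx2* (0.11), a secreted synaptic pentraxin.

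Mice differed in this list even within a group. The mean deviation of its members from their mean over the 24 mice, on the log2 scale, was 0.19 ± 0.20 in control and -0.14 ± 0.18 in duloxetine mice (SD, n = 6 each). Mouse 2_3 stood highest at 0.50 and mouse 5_3 lowest at -0.42. The groups overlapped, with duloxetine mice 6_1 and 6_2 at 0.08 and -0.00 and control mice 2_2 and 3_3 at 0.04 and -0.03. Mouse 2_3 was also the control with the highest summed striatal (3281) and oligodendrocyte (39689) markers, and their part in its immediate early values was not tested.

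In the separate mice the members under the threshold had the same direction. There 13 of 22 members were lower at an unadjusted p under 0.05 and 0 higher, where 9.9% of all genes were lower and 9.76% higher, and the median was -0.39. The difference in mean log2 deviation was -0.46, and it ran from -0.58 to -0.36 when 1 of those 12 mice was left out. All 8 members lower with duloxetine alone were among the 13. *Npas4* fell by 1.22 (adjusted p = 0.018), *Nr4a1* by 0.66 (adjusted p = 0.0489), *Junb* by 0.59 (adjusted p = 0.0356) and *Egr4* by 0.66 (adjusted p = 0.033) on the log2 scale, all with limma.

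**Figure D2:**
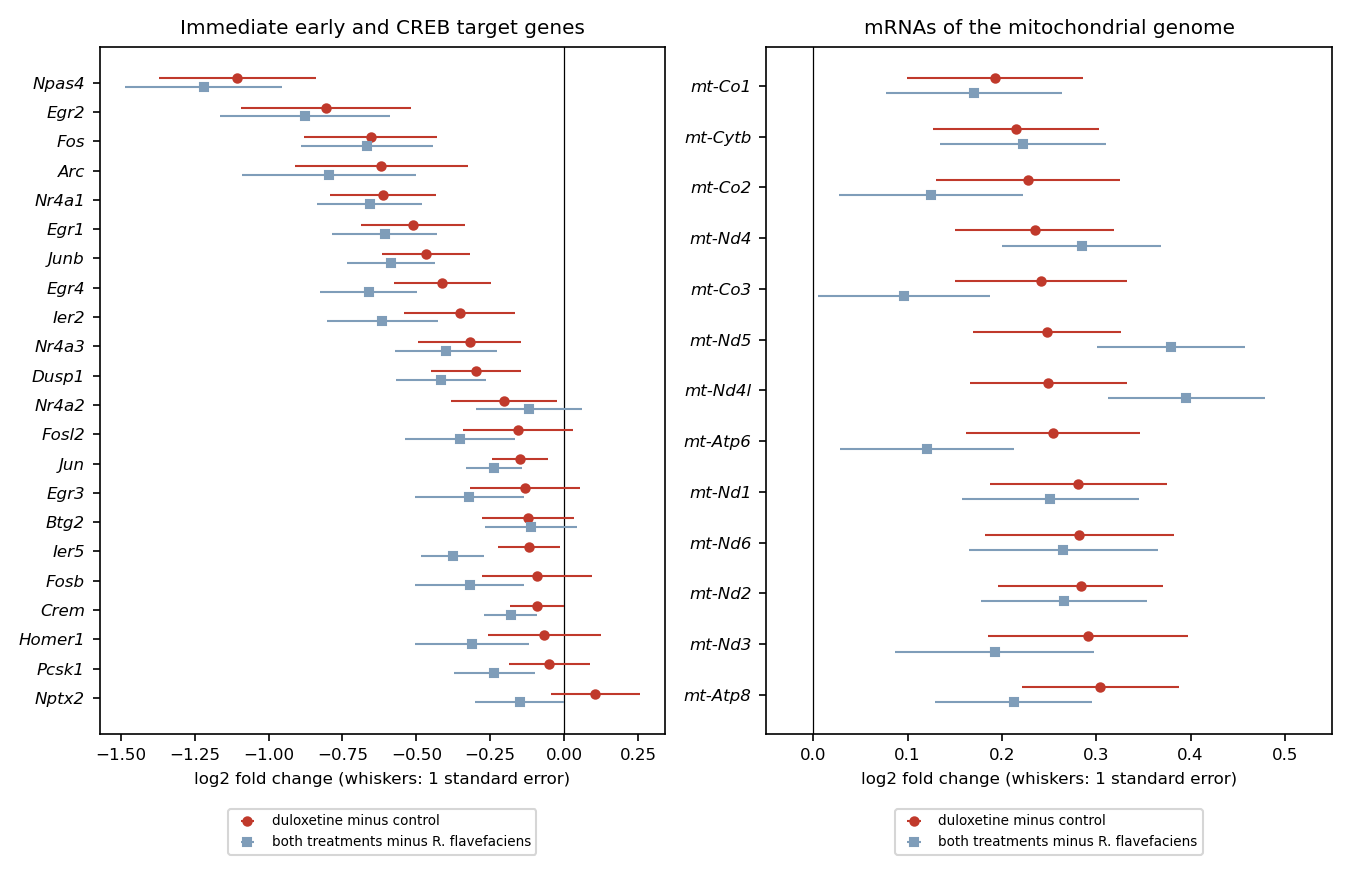
Log2 fold change (x axis) with 1 standard error of each member of 2 lists (y axis), for duloxetine minus control (circles) and for both treatments minus *R. flavefaciens* (squares), which use different mice. Of the immediate early genes 21 of 22 circles lie left of 0, and all 13 mitochondrial mRNAs lie right of 0 in both sets.

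The 250 bases before the RefSeq start of 4 genes with lower means in duloxetine mice are given to show the letters of the cAMP response element, the site bound by CREB. They come from RefSeq (GRCm38.p6), 5′ to 3′ in the direction of the gene. For *Adrb1* the RefSeq start lies upstream of the start in the deposited table, so that its window ends before the gene given above begins. Capitals mark the core TGACG on either strand, read as TGACG or CGTCA. The windows are chr19:56721867-56722116 (plus strand) for *Adrb1*, chr19:4989972-4990221 (minus strand) for *Npas4*, chr15:101266596-101266845 (plus strand) for *Nr4a1* and chr12:85473640-85473889 (plus strand) for *Fos*.
Adrb1: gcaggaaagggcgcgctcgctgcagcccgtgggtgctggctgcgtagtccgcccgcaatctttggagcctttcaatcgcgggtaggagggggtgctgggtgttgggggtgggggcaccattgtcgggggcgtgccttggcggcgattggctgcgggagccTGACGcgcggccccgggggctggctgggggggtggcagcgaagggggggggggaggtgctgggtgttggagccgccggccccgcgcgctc
Npas4: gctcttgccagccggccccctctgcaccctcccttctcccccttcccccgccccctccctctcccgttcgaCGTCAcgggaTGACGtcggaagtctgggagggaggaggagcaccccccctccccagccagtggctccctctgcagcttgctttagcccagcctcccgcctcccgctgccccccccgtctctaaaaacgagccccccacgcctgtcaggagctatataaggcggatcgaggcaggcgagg
Nr4a1: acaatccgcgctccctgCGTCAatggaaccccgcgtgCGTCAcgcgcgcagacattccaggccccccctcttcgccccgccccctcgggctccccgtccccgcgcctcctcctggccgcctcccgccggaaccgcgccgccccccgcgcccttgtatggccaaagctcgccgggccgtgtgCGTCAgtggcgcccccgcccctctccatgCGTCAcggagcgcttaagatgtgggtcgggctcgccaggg
Fos: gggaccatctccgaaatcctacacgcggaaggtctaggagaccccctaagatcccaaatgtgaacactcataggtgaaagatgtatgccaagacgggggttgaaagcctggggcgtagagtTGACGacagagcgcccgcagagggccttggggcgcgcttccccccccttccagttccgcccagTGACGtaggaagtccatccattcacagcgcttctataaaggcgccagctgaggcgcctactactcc
The core occurred 1 time in the *Adrb1* window, 2 times each in those of *Npas4* and *Fos* and 4 times in that of *Nr4a1*. It was found in 17.8% of all 32851 promoter windows of this length, in 25.3% of those of tested genes and in 15 of 21 windows of the immediate early list (71.4%). The full palindrome TGACGTCA, which holds the core on both strands, was in 1.55%, 2.57% and 14.3%, and in none of the 4 printed windows. The CArG box, the site of SRF, was in 1.47%, 1.16% and 19%, and also in none of the 4. CREB targets were among the criteria for this list, so its share of windows with the core is not independent of how its members were chosen. A match is a description of letters and not of binding.

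Genes that damp the ERK pathway had 2 of 13 tested members lower and 0 higher at an unadjusted p under 0.05, beside 1.63% lower among all genes. Their median was -0.04, and it ran from -0.09 without duloxetine mouse 5_1 to -0.03 when 1 of the 12 mice was left out. *Spry2*, which inhibits receptor tyrosine kinase signalling and is itself induced by ERK, had 859 to 988 normalized counts in controls (median 888) and 710 to 852 in duloxetine mice (median 768). All treated mice were below all controls, and the log2 fold change was -0.23 (SE 0.06, limma adjusted p = 0.907). The phosphatase *Dusp6* was at -0.30 (SE 0.15), with mouse 5_1 highest of the treated mice at 1544 normalized counts and a treated median of 1196. Among mice given the bacterium *Spry2* fell by 0.31 on the log2 scale (limma adjusted p = 0.011).

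Clock genes showed a similar order. The hour of dissection of each mouse is not given in the sources used here, and its part in these values was not tested. Of 18 tested members 5 were lower and 0 higher at an unadjusted p under 0.05, beside 1.63% lower among all genes, 16 had a log2 fold change below 0, and the median was -0.09. *Cry1*, a repressor at the core of the clock, ranged from 299 to 374 in controls (median 329) and from 240 to 288 in duloxetine mice (median 278), without overlap. Its log2 fold change was -0.28 (SE 0.07, adjusted p = 0.907 with limma and 0.0498 with DESeq2 on the 12 mice). The repressors *Cry2* (-0.14, SE 0.05), *Per1* (-0.26, SE 0.10) and *Nr1d2* (-0.14, SE 0.06) and the output factor *Dbp* (-0.21, SE 0.10) were the others. The activators *Arntl* (0.07) and *Clock* (-0.04) were not under the threshold. This count rested on single mice, with 2 members without control mouse 2_3 or 3_1, 3 without duloxetine mouse 5_3 or 5_4, and 8 without control mouse 2_2. In the second set 10 of 18 were lower, among them all 5, beside 9.9% of all genes, with a median of -0.18. There *Cry1* fell by 0.36 (adjusted p = 0.0152), *Cry2* by 0.19 (adjusted p = 0.0398) and *Dbp* by 0.61 (adjusted p = 0.0062) on the log2 scale, all with limma.

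Opposite in direction stood the mRNAs that the mitochondrial genome encodes, the core subunits of complexes I, III and IV and of ATP synthase. All 13 had an unadjusted p under 0.05 and were higher in duloxetine mice, beside 2.2% of all genes. The median log2 fold change was 0.25, with a range from 0.19 to 0.30. These genes lie on long shared transcripts, so the 13 mRNAs are not independent observations and their counts are descriptive. None passed the adjusted threshold with limma, whereas DESeq2 on the 12 mice called 9 of them, beside 0.279% of the genes of that fit. After quantile normalization the median was 0.12 and 8 of 13 were under the unadjusted threshold, where 246 genes in all were higher. With a trend on transcript length removed, 11 of 13 were, among 244 higher genes in all, *mt-Atp8* was at 0.16 and the tRNA gene *mt-Tl1* at 0.34.

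*mt-Nd5*, a subunit of complex I, had 36028 to 39890 normalized counts in controls (median 38320) and 40857 to 52869 in duloxetine mice (median 44112), without overlap, and a log2 fold change of 0.25 (SE 0.08). *mt-Nd2*, also of complex I, had medians of 26258 and 31449 and a log2 fold change of 0.28 (SE 0.09). *mt-Atp8*, of ATP synthase, had medians of 6717 and 8356 and a log2 fold change of 0.30 (SE 0.08). In each of these 3 genes mouse 6_2 was the highest of all 12. Of the 13 mRNAs, which are not independent of each other, 5 had no overlap between the groups, beside 0.167% of all genes higher without overlap. *mt-Tl1*, the gene of a mitochondrial leucine tRNA, had the second smallest p of all higher genes, at 102 to 141 normalized counts in controls and 147 to 228 in treated mice and a log2 fold change of 0.56 (SE 0.13). Mitochondrial genes overlap or abut on long shared transcripts, so reads between neighbours such as *mt-Atp8* and its overlapping partner could have been split by the counting.

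The share of recovered reads that fell on the mitochondrial genome was 4.29% ± 0.187 in control and 5.04% ± 0.603 in duloxetine mice (SD, n = 6 each). The mice were uneven, since mice 5_3, 6_2 and 6_3 had 5.38%, 5.98% and 5.27%. Mice 5_1, 5_4 and 6_1 had 4.50%, 4.51% and 4.60%, all below the highest control at 4.61%. In the second set 8 of 13 were higher at an unadjusted p under 0.05, beside 9.76% of all genes, with a median of 0.22, and *mt-Nd5* (0.38, adjusted p = 0.0171 with limma) and *mt-Nd4l* (0.40, adjusted p = 0.0171) rose.

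The nuclear genes for the same complexes had smaller medians, with most members above 0 under the main settings. Of 45 subunits of complexes I and III, 0 had an unadjusted p under 0.05 and 35 were above 0. Among all tested genes 49.0% were above 0. The median of these 45 was 0.03, and it ran from -0.01 to 0.05 over other settings, so its sign depended on the processing. Of 26 subunits of complex IV and ATP synthase, 2 were higher at an unadjusted p under 0.05, beside 2.2% of all genes. These were *Atp5l*, a small subunit of ATP synthase, and *Cox8a*, of complex IV. Of the 26, 24 were above 0, with a median of 0.04, and 0.02 to 0.06 over other settings. *Atp5l* ranged from 628 to 675 in controls (median 641) and from 682 to 815 in treated mice (median 758), without overlap, with a log2 fold change of 0.23 (SE 0.07). *Cox8a* was at 0.14 (SE 0.07), and at 0.060 with a trend on transcript length removed. *Cox7b*, of complex IV, also had no overlap between the groups, at 0.12 (SE 0.06, unadjusted p = 0.0574). The second set went the other way, with a median of -0.12 and 17 of 45 lower for complexes I and III, and -0.11 and 9 of 26 lower for complex IV and ATP synthase, beside 9.9% of all genes lower there. Single libraries bore on this: mouse 9_3 and mouse 7_2, given *R. flavefaciens* alone, had 51792 and 47380 summed normalized counts for complexes I and III, against 40633 to 42623 in the other 4 mice of that group. Without mouse 9_3 the difference in mean log2 deviation was -0.06 in place of -0.11 for complexes I and III, and -0.05 in place of -0.11 for complex IV and ATP synthase. For *Atp5l* the difference between both drug effects had an unadjusted p of 0.000972 and an adjusted p of 0.639 with limma.

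**Figure D3:**
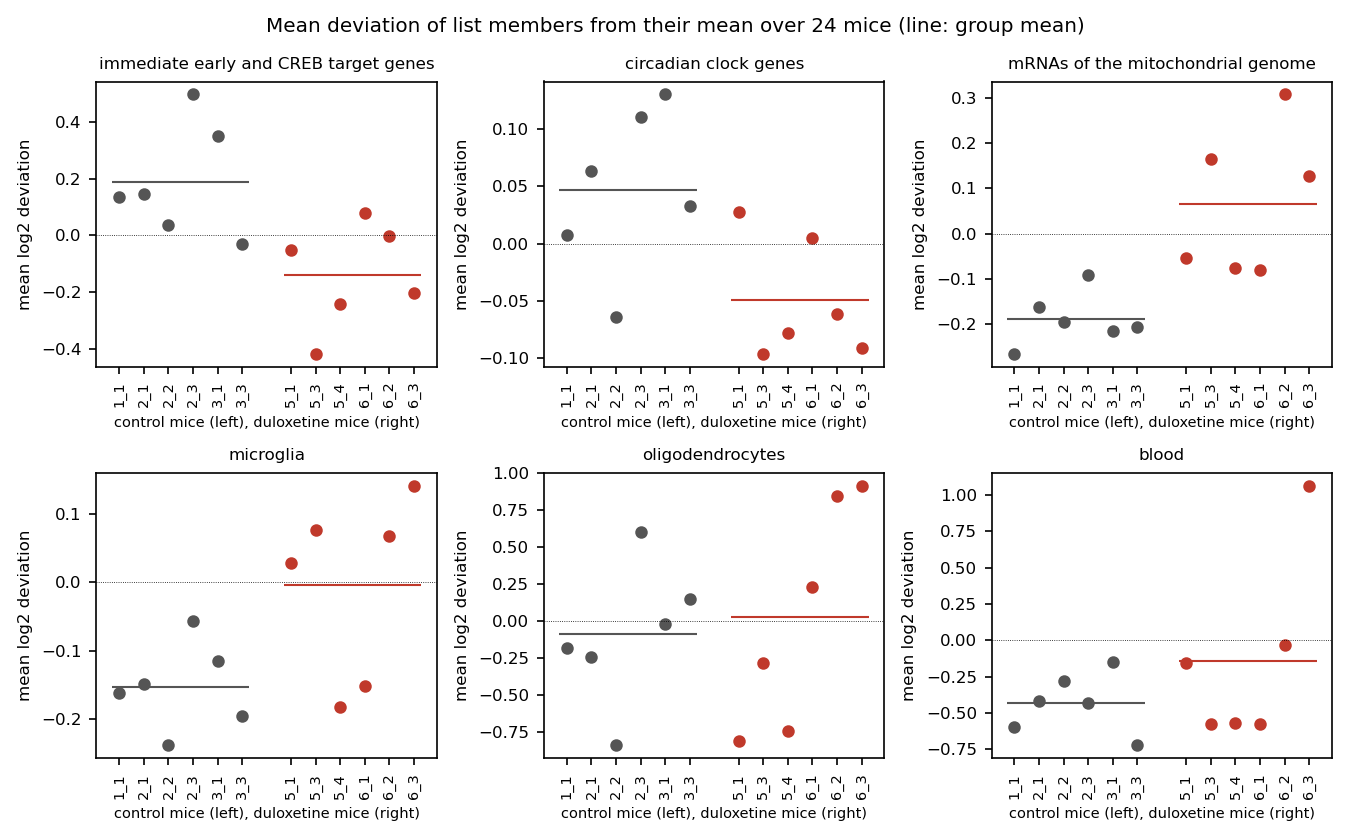
Mean deviation of the members of 6 lists from their mean over all 24 mice (y axis, log2 scale), for each control and duloxetine mouse (x axis), with a line at the group mean. On this scale the mitochondrial list separates the groups narrowly and the immediate early list overlaps. Summed counts of the mitochondrial mRNAs overlapped, with 572829 in the highest control and 566097 in the lowest duloxetine mouse. The oligodendrocyte list is wide in both groups, and mouse 6_3 stands apart in the blood list.

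Beyond these lists, the 12 higher genes with the smallest p included *F3*, *mt-Tl1*, *Tifab*, *Tcim*, *E130311K13Rik*, *mt-Atp8*, *Trpv6*, *Atp5l*, *Arrdc2*, *Gm26809* and *Gm37324*. *F3*, tissue factor, which starts coagulation and is made by astrocytes, had 217 to 333 normalized counts in controls (median 268) and 317 to 489 in duloxetine mice (median 353). Only mouse 6_2 and mouse 5_4 reached down into the control range, and the log2 fold change was 0.51 (SE 0.12). *Tcim*, a small regulator of transcription, stood at 5.87 ± 4.05 and 12.4 ± 3.66 (SD, n = 6 each), a log2 fold change of 1.12 (SE 0.30) on very few reads. The calcium channel *Trpv6* was at 0.32 (SE 0.09) and the arrestin-related *Arrdc2* at 0.53 (SE 0.15).

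The 12 lower genes were *Adrb1*, *Npas4*, *Arhgap28*, *Mxd1*, *Zfp282*, *Chrm4*, *Spry2*, *Cry1*, *Ppp1r15b*, *Cnot6*, *Nr4a1* and *Xrcc6*. *Chrm4*, the inhibitory M4 muscarinic receptor, ranged from 248 to 386 in controls (median 343) and from 205 to 274 in duloxetine mice (median 261). Its log2 fold change was -0.40 (SE 0.10), and 1 control, mouse 2_2, lay within the treated range. *Mxd1*, which competes with MYC for their shared partner, was at -0.30 (SE 0.07). *Cnot6*, a deadenylase of the CCR4-NOT complex, was at -0.20 (SE 0.06) without overlap, and *Ppp1r15b*, which directs a phosphatase to the initiation factor eIF2, at -0.18 (SE 0.05). *Arhgap28*, a GTPase-activating protein, was at -1.07 (SE 0.26), at 15.7 ± 4.17 and 6.87 ± 1.74 normalized counts (SD, n = 6 each).

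The separate mice allowed these genes to be seen again. Of the 12 higher genes 11 had the same sign there and 8 also an unadjusted p under 0.05, and of the 12 lower genes 10 and 9, beside 55.6% of all genes with the same sign and 9.76% higher and 9.9% lower at an unadjusted p. The limma threshold, passed by 2.23% of all genes there, was passed by 2 of the higher (*mt-Tl1*, *Trpv6*) and by 6 of the lower genes (*Adrb1*, *Npas4*, *Spry2*, *Cry1*, *Ppp1r15b*, *Nr4a1*). *Atp5l*, *Cnot6* and *Xrcc6* had the opposite sign. *Arhgap28* had -0.15 (SE 0.26). For all genes the drug effects with and without the bacterium did not differ past the threshold, with 0 of 14974 genes at an adjusted interaction p under 0.05 and 1128 at an unadjusted one by limma, the only tool run for it.

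Over all 573 genes at an unadjusted p under 0.05, 72.3% had the same sign in the second set, beside 55.6% of all tested genes. The share was 69.0% of the 329 higher and 76.6% of the 244 lower genes. In the second set 153 of the 573 (26.7%) were under the unadjusted threshold in the same direction and 12 (2.09%) in the opposite one. Among all genes 13.1% had the same sign and were under it there. Both comparisons share no mouse but share the estimate of spread of 1 fit, which the signs do not use. Without duloxetine mouse 5_1 the share with the same sign was 79.2%, and without mouse 5_4 it was 66.7%.

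For the other pathways, counts of members under the unadjusted threshold stand beside 2.2% higher and 1.63% lower among all genes. Of 13 glucocorticoid receptors and targets 1 was higher, *Tsc22d3* (0.28, SE 0.10), and 1 lower, *Per1*, with a median of 0.05. That median ran from -0.02 to 0.08 when 1 of the 12 mice was left out. Of 13 neuropeptides *Npy* was higher (0.20, SE 0.09), and at 0.13 with a trend on transcript length removed. The median of the list was 0.11, and 0.06 to 0.07 without control mouse 2_2 or duloxetine mouse 5_1 or 6_2, beside -0.15 in the second set. Of 16 genes of the integrated stress response *Ddit4*, an inhibitor of mTORC1, was higher (0.37, SE 0.14) and *Mthfd1l*, a mitochondrial folate enzyme, lower (-0.20, SE 0.06), beside 0.43 and -0.40 in the second set. Of 22 cholesterol genes 1 was higher (*Msmo1*, 0.11), and of 30 ubiquitin-conjugating enzymes 1 (*Ube2l3*, 0.11). The 9 neurotrophins and receptors, 17 ionotropic glutamate receptors, 12 GABA-A subunits and 30 SR proteins and hnRNPs had 0 members each, with medians of 0.03, -0.04, -0.01 and -0.01. *Bdnf* was at 0.04.

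**Figure D4:**
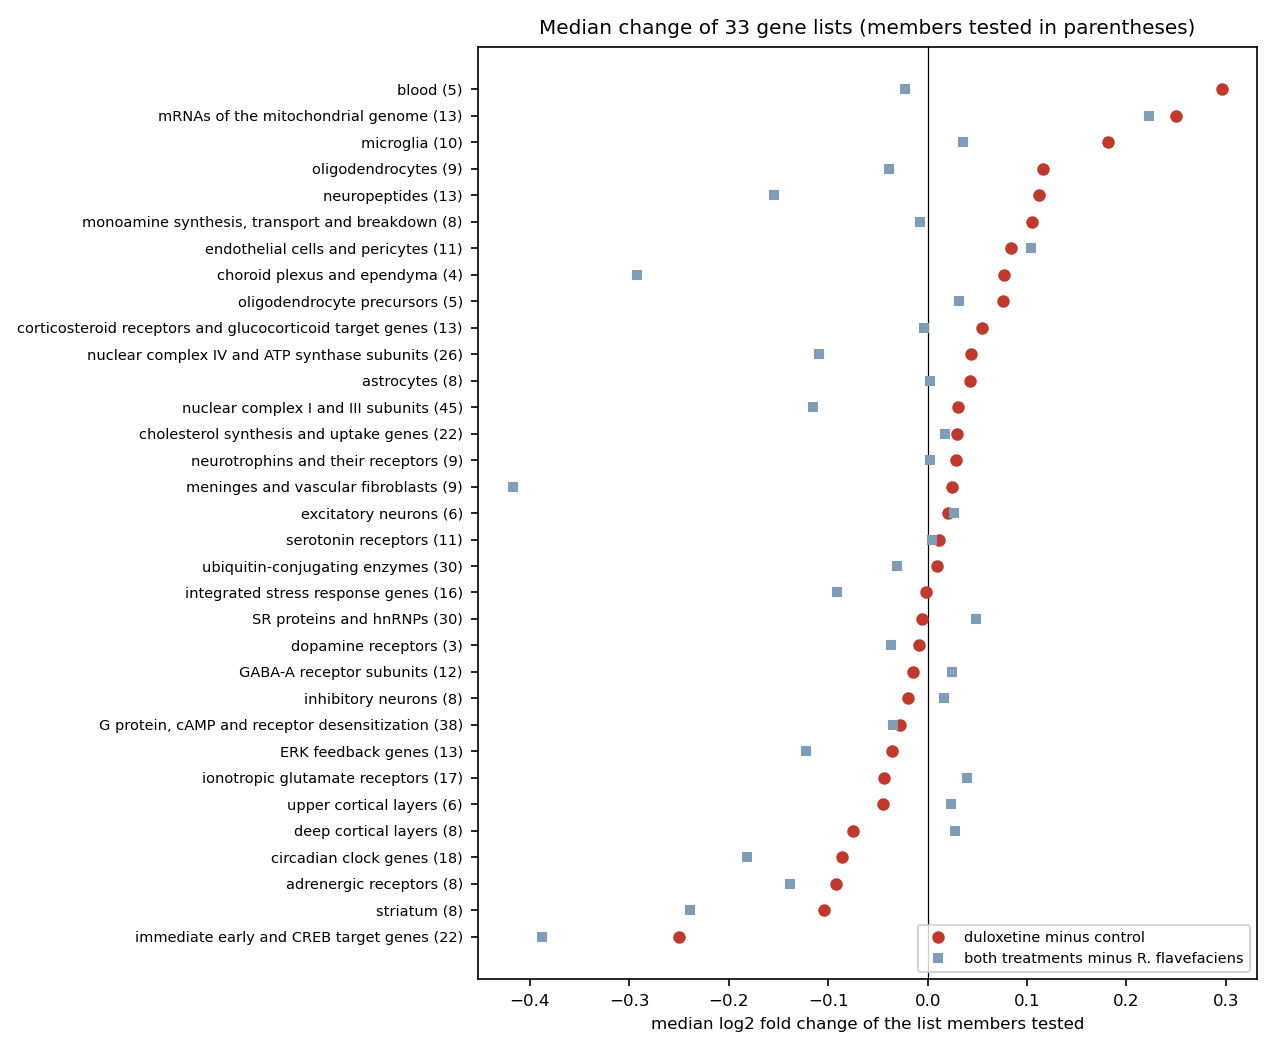
Median log2 fold change (x axis) of the tested members of 33 gene lists (y axis, number tested in parentheses), for duloxetine minus control (circles) and both treatments minus *R. flavefaciens* (squares). The immediate early list is lowest with duloxetine alone at -0.25 and stands at -0.39 in the second set, where the meningeal list is lower still at -0.42. The blood and mitochondrial lists are highest with duloxetine alone, at 0.30 and 0.25, but the blood median is 0.04 without duloxetine mouse 6_3.

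Cell type markers were compared in the same way. No member of the excitatory neuron, upper layer, deep layer, striatal, oligodendrocyte, precursor, astrocyte, meningeal, choroid plexus or blood lists had an unadjusted p under 0.05. All 8 striatal markers were below 0 (median -0.10), and all 8 astrocyte (median 0.04) and 9 oligodendrocyte markers above 0. When 1 of the 12 mice was left out, the striatal median ran from -0.17 to -0.07 and the astrocyte median from 0.02 to 0.07. Beside 2.2% of all genes, 4 of 10 microglial markers were higher (*Tmem119* 0.19, *P2ry12* 0.21, *Cx3cr1* 0.17 and *C1qa* 0.19), with 9 of 10 above 0 and a median of 0.18. Their summed level was 4403 to 5082 normalized counts in controls, with *Csf1r* the most abundant, and 4612 and 4785 in duloxetine mice 5_4 and 6_1 but 5480 to 5955 in the other 4. No microglial marker was at 0. The count was 1 without control mouse 3_3 or without duloxetine mouse 5_1, 5_3 or 6_3, 2 without control mouse 2_2 or duloxetine mouse 6_2, and 7 without duloxetine mouse 5_4, with array weights or with edgeR on the 12 mice. In the second set 0 of 10 were under the threshold and the median was 0.04. *Tek*, of endothelial cells (0.21), and *Dlx6os1*, of inhibitory neurons (0.17), were the single members under the threshold in their lists.

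Single libraries stood apart in tissue makeup. Oligodendrocyte markers, with *Mbp* first, summed to 14630 to 39689 normalized counts in controls and 15729 to 47592 in duloxetine mice, highest in mice 6_2 and 6_3. Their median log2 fold change was 0.12, and it ran from -0.06 to 0.27 when 1 of the 12 mice was left out. Blood markers, with *Hbb-bs* first, reached 984 in mouse 6_3 and no more than 482 in the other 11 mice, and their median log2 fold change of 0.30 was 0.04 without that mouse. Meningeal markers, with *Col1a2* first, were at 1949 in control mouse 2_2 and 1803 in duloxetine mouse 5_1, against 666 to 1262 in the rest. *Ttr*, of the choroid plexus, was at 68.6 in mouse 5_3 and at 0 in 2 controls. Mice 5_3, 6_2 and 6_3, which had the highest mitochondrial share, were also among the 4 with most microglial signal. The same 3 mice had the highest summed endothelial and pericyte markers of the 12 (6362, 6397 and 6664 normalized counts, against 6093 in the highest control), with *Rgs5* the most abundant. The part of tissue makeup in the mitochondrial difference was not tested. The count of mitochondrial mRNAs under the threshold was 10 to 13 when any 1 of the 12 mice was left out.

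Longer transcripts tended to have lower log2 fold changes with duloxetine alone (Spearman correlation -0.18 across 14958 genes, which are not independent) and higher ones in the second set (0.26). With this trend removed, 79.2% of the genes at an unadjusted p under 0.05 had the same sign in both sets.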

How the data were processed

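RNA of 24 mouse prefrontal cortices was sequenced by the authors, who, per the methods, mapped reads to GRCm38.p5 and normalized gene counts with DESeq2. The submitters' notes name TopHat2 2.1.0, Bowtie2 2.2.6, DESeq2 1.18.1 and the build mm9. The deposited signal values are counts divided by 1 size factor per mouse. Gene positions in the table matched GENCODE vM21 (GRCm38) for 14253 of 15438 shared IDs. At least 99.96% of each column's values were whole multiples of a step (tolerance 0.0051), and dividing by it gave the recovered reads. The filter that left 15456 genes is not given in the sources used here.

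Genes with a mean of at least 10 were tested with limma 3.58.1 (R 4.3.3, trended prior) on log2(value + 1), which understates changes of low genes. All 4 groups entered 1 fit, tests were two-sided, and p-values were adjusted by Benjamini-Hochberg (threshold 0.05). DESeq2 1.42.0 and edgeR 4.0.16 were run on recovered reads as alternatives. Pairs of mice within the 2 groups differed by more than counting error (chi-square per degree of freedom 2.07 to 11.8 over 30 pairs). P-values cover the spread between single mice. Named genes were the 12 higher and 12 lower with the smallest p, those called by DESeq2 with 4 groups, monoamine genes, and up to 4 members per list with the most abundant marker. The members and the 33 lists were chosen with earlier results of these data known. *Egr1*, *Egr2*, *Egr4*, *Arc*, *Dbp*, *Nptx2*, *Arntl*, *Clock* and *Bdnf* were named after their values were seen, and so were counts of list members over settings. Python 3.11.15 and matplotlib 3.10.9 drew figures. Some named genes are not reported here.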

Additional observations from a re-analysis of the deposited data

Results flagged for a closer look

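In groups of 6 mice, a mouse was singled out where its gap to the nearest other mouse was a larger part of the group's range than Dixon's 95% critical value. Of the groups examined, 11 of 182 had such a mouse, and chance gives about 1 in 20. Among duloxetine mice, *Trpv6* was highest in mouse 5_4 (168 normalized counts), *Dusp6* in mouse 5_1 (1544), and *Npy* lowest in mouse 6_1 (589) and *Dbp* in mouse 5_4 (482). Among controls, *Spry2* (988) and *Arc* (8870) were highest in mouse 2_3. On the mean log2 deviation of lists, duloxetine mouse 6_2 was lowest for adrenergic receptors (-0.14) and ubiquitin-conjugating enzymes (-0.059). Duloxetine mouse 6_3 was highest for blood markers (1.06) and control mouse 2_2 for meningeal markers (1.04). Control mouse 2_1 had the deepest library of its group (14446451 recovered reads).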

How the results depend on the processing

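No paired analysis was possible because the mice of different groups share no replicate number. The genes called by limma numbered 0 under the settings tried, also at an adjusted p under 0.1 and with any 1 of the 12 mice left out, but DESeq2 called 1 gene with 4 groups and 28 with only the 2 groups. *Adrb1* had a log2 fold change of -0.41 to -0.37 over the other settings and -0.42 to -0.35 without any 1 mouse. It passed the threshold only with DESeq2, in 4 groups (-0.39, adjusted p = 0.0197) and in 2 groups (-0.39, adjusted p = 1.58e-05). The limma fit of only the 12 mice gave an adjusted p of 0.0502. With edgeR the adjusted p was 0.404 in 4 groups and 0.0553 in 2. With limma it was 0.639 after quantile normalization and 0.239 or more without any 1 mouse. The genes at an unadjusted p under 0.05 numbered 1166 with array weights, 1052 in the limma and 1034 in the edgeR fit of the 12 mice, and 458 to 702 without any 1 mouse. The share with the same sign in the second set was 79.2% with the length trend removed and 66.7% to 79.2% without any 1 mouse. Of 53 other genes, picked by their small p in these mice, none changed sign under any setting. Every setting used the same mice or left 1 out, so these unchanged signs are no separate support. Of the 53, 14 passed the threshold only with DESeq2 on the 12 mice. List medians moved by more than the spread between mice in 3 of 824 cases. These were 1 setting each for dopamine receptors, mitochondrial mRNAs and nuclear complexes I and III. Other medians near 0 changed size or sign with single mice. Counts of list members and leaving out mice given the bacterium were alternatives chosen after seeing the data. The counts moved for the clock, microglial and mitochondrial lists as given above. For the immediate early list the count ran from 6 to 11 without any 1 mouse and from 7 to 11 over other settings. The cause of these differences was not tested. Libraries of 13435517 to 14938209 reads limit what low genes such as *Drd5*, *Tcim* and *Arhgap28* can show.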
